A study of Homo sapiens with 6 samples.

Results

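Neurofilament, stathmin and CRMP genes encode structural and microtubule-regulating proteins best known from neurons, and their mRNA levels were measured in HEK293T cells after silencing of LOC550643. The group was defined by name, as 10 genes: the neurofilament genes INA, NEFL, NEFM and NEFH, the stathmin genes STMN1, STMN2, STMN3 and STMN4, and the CRMP genes CRMP1 and DPYSL2. All 10 were found among the 26391 rows of the gene table, each under 1 accession and at 1 genome position. HEK293T is a line derived from human embryonic kidney that makes the large T antigen of SV40, and lines of this origin are known to make neurofilament proteins. The LOC550643 siRNA group had received a pool of 4 siRNAs against LOC550643, a gene for a small protein that binds the decapping scaffold EDC4. The control siRNA group had received a non-silencing siRNA with the same transfection reagent, and both groups were of the same cell line with no other agent or allele named. Each group held 3 libraries, made from cells transfected at 50% confluency and lysed 48 hours later. With 1 pool and 1 control siRNA, effects of silencing and other effects of either siRNA cannot be told apart.

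Neurofilaments are intermediate filaments that fill axons: the light chain NEFL and alpha-internexin (INA) can form the core of the filament, while the medium and heavy chains NEFM and NEFH carry long side arms. Stathmins bind tubulin dimers and favour the shrinking of microtubules; STMN1 is common in dividing cells, while STMN2, STMN3 and STMN4 are membrane-anchored forms typical of neurons. CRMPs are cytosolic proteins that bind tubulin and act downstream of semaphorin 3A in growth cone collapse, DPYSL2 being the member known as CRMP2.

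LOC550643, listed as LINC01420, stood at 5.85, 5.96 and 5.41 CPM in the LOC550643 siRNA libraries, against 56.2, 50.7 and 51.8 CPM in the control libraries. CPM, the usual unit of reads scaled to library size, are here the deposited values over the TMM-scaled library total. As inferred from the values, the libraries held 8604236 to 36082404 read pairs assigned to genes, and LOC550643 siRNA replicate 3 was the shallowest. Control replicate 2 differed most from its group (chi-square per degree of freedom of 31.4 and 41.8 against the other control libraries).

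Promoter windows of the genes that fell are shown because these members moved in the same direction, with that of STMN1, a member that did not pass the test, for comparison. They are RefSeq promoter windows from 250 bases before to 50 bases after a start site, taken from a GRCh38.p14 table and placed on GRCh37, the build of the gene table (hg19), by exact match. Of several windows of a gene, the one nearest to the start in the gene table was taken, at 25 bases from it for INA, 117 for CRMP1, 108 for STMN1 and 844 for STMN3, whose window lies within the listed gene. Capitals mark GGGCGG, the GC box, and GGACAG, one part of the RE1 element bound by the repressor REST, on either strand.
INA, chr10:105036645-105036944, plus strand: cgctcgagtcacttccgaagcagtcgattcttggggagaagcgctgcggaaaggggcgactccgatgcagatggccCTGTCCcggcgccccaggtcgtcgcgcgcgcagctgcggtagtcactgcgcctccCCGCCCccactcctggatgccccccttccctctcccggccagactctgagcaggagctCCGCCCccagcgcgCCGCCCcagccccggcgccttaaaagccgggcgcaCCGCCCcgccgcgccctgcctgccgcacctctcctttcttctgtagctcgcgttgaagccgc
STMN3, chr20:62284070-62284369, minus strand: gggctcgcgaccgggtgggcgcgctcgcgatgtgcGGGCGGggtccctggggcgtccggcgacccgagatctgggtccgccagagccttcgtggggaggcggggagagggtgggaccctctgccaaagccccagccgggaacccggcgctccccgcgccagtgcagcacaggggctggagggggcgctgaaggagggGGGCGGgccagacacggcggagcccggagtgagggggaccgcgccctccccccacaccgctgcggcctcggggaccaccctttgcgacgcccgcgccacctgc
CRMP1, chr4:5890177-5890476, minus strand: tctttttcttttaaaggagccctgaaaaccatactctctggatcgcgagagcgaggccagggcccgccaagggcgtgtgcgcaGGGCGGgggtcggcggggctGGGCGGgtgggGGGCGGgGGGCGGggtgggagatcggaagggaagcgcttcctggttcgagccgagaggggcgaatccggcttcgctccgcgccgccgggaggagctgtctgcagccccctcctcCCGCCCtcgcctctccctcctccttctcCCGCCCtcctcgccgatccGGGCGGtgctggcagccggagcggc
STMN1, chr1:26232487-26232786, minus strand: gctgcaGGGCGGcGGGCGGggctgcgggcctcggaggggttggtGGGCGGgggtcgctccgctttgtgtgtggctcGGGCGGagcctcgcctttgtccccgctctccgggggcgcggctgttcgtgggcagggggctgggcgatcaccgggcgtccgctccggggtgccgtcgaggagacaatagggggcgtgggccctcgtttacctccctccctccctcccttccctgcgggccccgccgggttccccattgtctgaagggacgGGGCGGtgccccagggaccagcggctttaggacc
The GC box occurred 4 times in the INA window, 2 times in that of STMN3, 7 times in that of CRMP1 and 5 times in that of STMN1. It was present in 45.0% of all 35116 RefSeq windows. GGACAG occurred 1 time, in the INA window, and in 20.5% of all windows. The letters CCAAT (34.6% of all windows), TATAAA (11.5%) and the other RE1 part TTCAGCACC (0.376%) were in none of the 4 windows, and no match overlapped that of another motif. All 4 windows were rich in G and C, at 71.3% for INA, 77.7% for STMN3, 71.7% for CRMP1 and 74.3% for STMN1, against a median of 58.7% over all windows.

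After LOC550643 silencing, 3 members fell (INA, STMN3 and CRMP1), 1 rose (NEFM), and NEFL, STMN1 and DPYSL2 did not pass the test. The other 3 members, NEFH, STMN2 and STMN4, were too low to be tested. Of the 7 tested members, 4 were called at an adjusted p under 0.05 (limma), beside 35.6% of all 16245 genes tested. The same test called 17.5% of all genes higher and 18.2% lower, so that calls were common throughout the transcriptome. The median log2 fold change was 0.03 over the tested members and -0.02 over all genes tested. Each fold change sets LOC550643 siRNA over control siRNA, on the log2(value + 1 deposited unit) scale. With library totals in place of TMM scaling, 34.4% of all calls were upward instead of 49.0% and the median over all genes was -0.09; the 4 members kept their calls and directions.

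**Figure D1:**
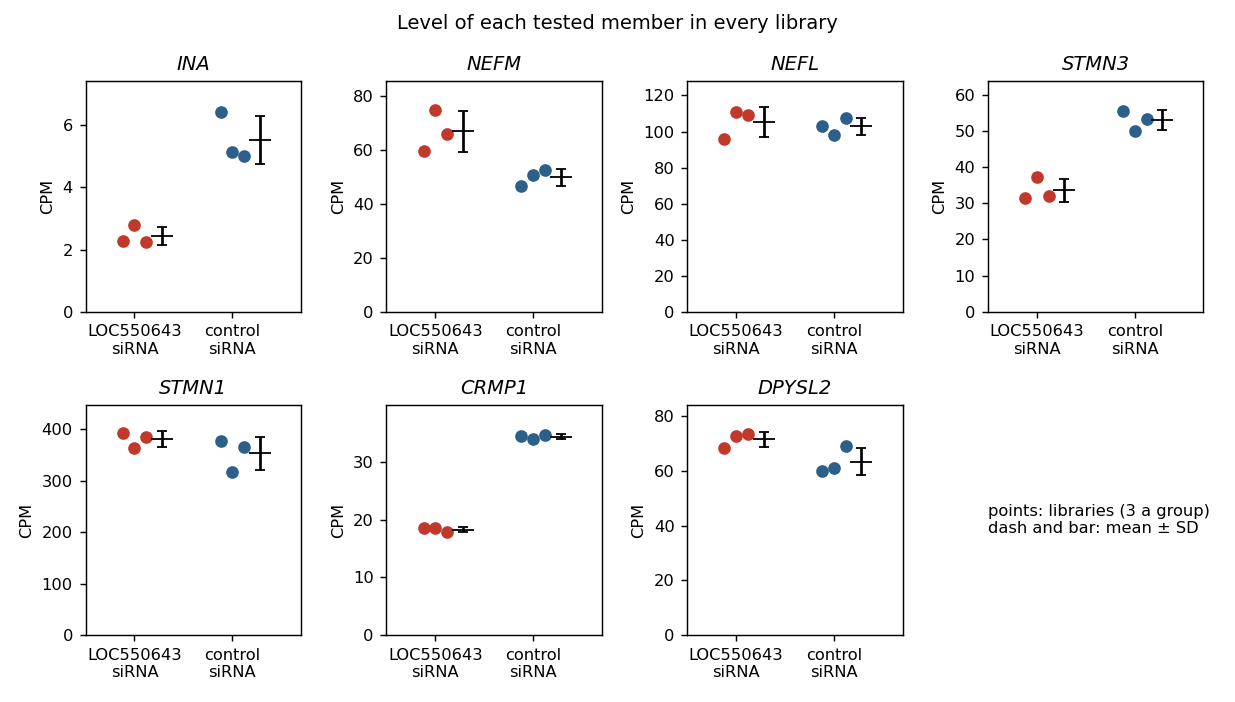
CPM of the 7 tested members (y axes from 0) in the LOC550643 siRNA libraries (red, left) and control libraries (blue, right), with points for libraries and a dash and bar for the mean ± SD of 3. INA, STMN3 and CRMP1 lie lower and NEFM higher in every LOC550643 siRNA library than in any control library.

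INA, the gene for alpha-internexin, had the lowest level and the largest fold change of the tested members. It lies on the plus strand of chromosome 10 at 105036920 to 105050108 (hg19). INA stood at 2.27, 2.78 and 2.26 CPM in the LOC550643 siRNA libraries, against 6.42, 5.15 and 5.01 CPM in the control libraries. Every LOC550643 siRNA library was below every control library. Its mean fell to 2.44 ± 0.295 CPM, against 5.53 ± 0.776 CPM with the control siRNA (SD, n = 3 each; log2 fold change -1.17, SE 0.156, 95% confidence interval -1.51 to -0.83, limma adjusted p = 0.000225). Of all genes tested, 1.48% had a lower log2 fold change. The shallowest library counted only 19 read pairs of INA, and its exact Poisson interval, for counting error only, ran from 1.36 to 3.53 CPM, below all 3 control libraries' values. Without that library the log2 fold change was -1.12 (limma adjusted p = 0.00139).

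NEFM, the medium chain, moved the other way. It lies on the plus strand of chromosome 8 at 24771274 to 24776606. NEFM stood at 59.8, 75.1 and 66.1 CPM in the LOC550643 siRNA libraries, against 46.5, 50.7 and 52.5 CPM in the control libraries. The groups did not overlap, although LOC550643 siRNA replicate 1 was nearer to the highest control library than to LOC550643 siRNA replicate 2. The mean rose to 67.0 ± 7.69 CPM, against 49.9 ± 3.08 CPM in control libraries (SD, n = 3 each; log2 fold change 0.42, SE 0.0908, limma adjusted p = 0.00427).

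NEFL, the light chain, lies on the minus strand of chromosome 8 at 24808469 to 24814383 and holds MIR6841 on the same strand. It stood at 95.8, 110.6 and 109.3 CPM in the LOC550643 siRNA libraries, against 102.9, 98.3 and 107.6 CPM in the control libraries. The groups overlapped throughout. The log2 fold change was 0.03 (95% confidence interval -0.14 to 0.20, limma adjusted p = 0.786), and with library totals it was -0.05, so no direction can be given.

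STMN3, a neuronal stathmin also called SCLIP, fell in every library of the pool. It lies on the minus strand of chromosome 20 at 62271058 to 62284963 and is listed under a noncoding accession, NR_075070. STMN3 stood at 31.4, 37.3 and 32.0 CPM in the LOC550643 siRNA libraries, against 55.5, 50.0 and 53.4 CPM in the control libraries. No LOC550643 siRNA library reached a control library. The mean fell to 33.6 ± 3.27 CPM, against 53.0 ± 2.77 CPM with the control siRNA (SD, n = 3 each; log2 fold change -0.66, SE 0.0857, limma adjusted p = 0.000190).

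STMN1, the stathmin of dividing cells, had the highest level of all members. It lies on the minus strand of chromosome 1 at 26226607 to 26232644, and processed copies of it exist in the genome, so reads may be shared with them. STMN1 stood at 393.1, 363.7 and 383.8 CPM in the LOC550643 siRNA libraries, against 376.3, 317.2 and 364.7 CPM in the control libraries. The lowest value was that of control replicate 2, and the groups overlapped. The log2 fold change was 0.11 (95% confidence interval -0.07 to 0.29, limma adjusted p = 0.309), an interval that leaves out a fall of the size seen for STMN3.

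CRMP1 had the smallest p of the members and the smallest spread between libraries. It lies on the minus strand of chromosome 4 at 5822491 to 5890343. CRMP1 stood at 18.5, 18.5 and 17.8 CPM in the LOC550643 siRNA libraries, against 34.4, 33.8 and 34.7 CPM in the control libraries. The groups were far apart, with coefficients of variation of 2.06% in LOC550643 siRNA libraries and 1.24% in control libraries. The mean fell to 18.3 ± 0.377 CPM, against 34.3 ± 0.424 CPM with the control siRNA, 0.533 of the control level (SD, n = 3 each; log2 fold change -0.91, SE 0.0744, limma adjusted p = 1.05e-05). Of all genes tested, 3.2% had a lower log2 fold change than CRMP1, and 7.15% a lower one than STMN3.

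DPYSL2, the gene for CRMP2, lies on the plus strand of chromosome 8 at 26371709 to 26515693. It stood at 68.2, 72.6 and 73.4 CPM in the LOC550643 siRNA libraries, against 59.8, 60.9 and 69.0 CPM in the control libraries. Control replicate 3 lay above the lowest LOC550643 siRNA library. The log2 fold change was 0.18 (95% confidence interval 0.01 to 0.34, limma adjusted p = 0.0924). Without control replicate 3 it was 0.24 and passed (limma adjusted p = 0.0427).

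**Figure D2:**
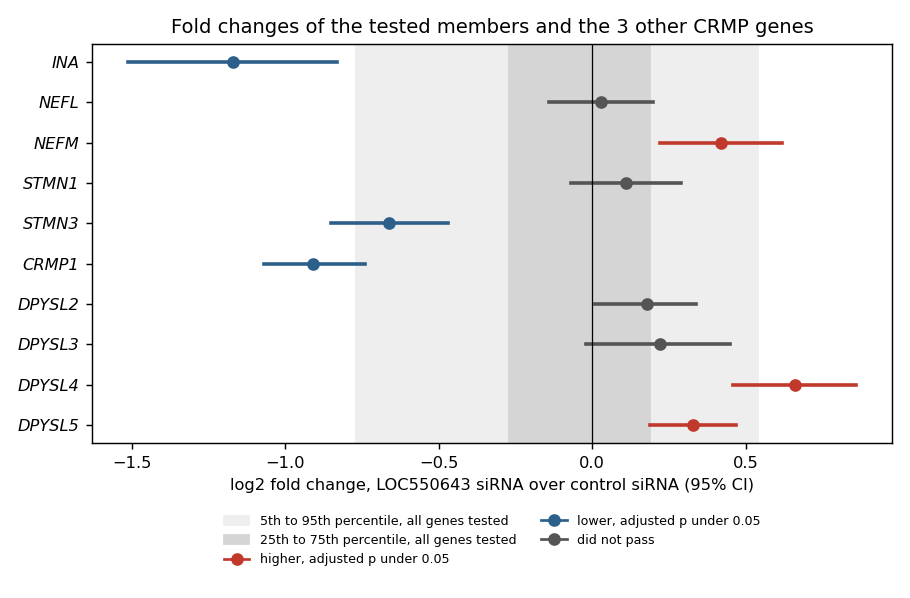
Log2 fold changes, LOC550643 siRNA over control siRNA (x axis), with 95% confidence intervals for the 7 tested members and DPYSL3, DPYSL4 and DPYSL5 (rows), on bands of the 5th to 95th and 25th to 75th percentiles of all genes tested. INA at -1.17 and CRMP1 at -0.91 lie below the 5th percentile of -0.77, and DPYSL4 at 0.66 lies above the 95th percentile of 0.54.

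The authors' deposited table gave the members the same directions. The authors' deposited table lists log2 fold changes of -1.15 for INA (adjusted p = 2.73e-09), -0.65 for STMN3 (3.02e-08), -0.90 for CRMP1 (6.59e-17) and 0.42 for NEFM (0.000994). Both sets of values rest on the same libraries. The groups of these 4 did not overlap, as was also true of 48.5% of all genes tested. Among all genes, 23.7% lay wholly higher in LOC550643 siRNA libraries, as NEFM did, and 24.9% wholly lower, as INA, STMN3 and CRMP1 did.

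Levels can be compared between genes only per length, here as CPM per kilobase of the deposited gene length. In LOC550643 siRNA libraries the order of mean levels was STMN1 (222.7 CPM per kb), NEFL (27.5), NEFM (20.5), DPYSL2 (15.4), STMN3 (13.3), CRMP1 (5.99) and INA (0.756). In control libraries it was STMN1 (206.6 CPM per kb), NEFL (26.9), STMN3 (20.9), NEFM (15.3), DPYSL2 (13.7), CRMP1 (11.2) and INA (1.71). STMN3 thus stood below NEFM and DPYSL2 with the LOC550643 siRNA pool and above both with the control siRNA. The ranges of neighbours in these orders overlapped only for NEFM and DPYSL2 in control libraries, though DPYSL2 and STMN3 came close in LOC550643 siRNA libraries, where the lowest level of DPYSL2 was 14.8 and the highest of STMN3 14.7 CPM per kb. Averaged over all libraries, the level per kb of STMN1 exceeded that of 98.6% of genes tested and that of INA exceeded 17.3%.

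The summed level of the 4 neurofilament genes was 48.7 ± 4.39 CPM per kb in LOC550643 siRNA libraries and 43.9 ± 1.62 CPM per kb in control libraries (SD, n = 3 each; two-sided exact permutation p = 0.2). INA made up 1.60%, 1.63% and 1.42% of it in LOC550643 siRNA libraries, against 4.62%, 3.73% and 3.39% in control libraries. NEFM made up 42.0 ± 1.41% in LOC550643 siRNA libraries and 34.8 ± 1.65% in control libraries (SD, n = 3 each). For both shares the groups did not overlap, and the two-sided exact permutation p was 0.1, the smallest that 3 libraries against 3 allow.

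The summed level of the stathmins was 236.1 ± 7.52 CPM per kb in LOC550643 siRNA libraries and 227.6 ± 19.4 CPM per kb in control libraries (SD, n = 3 each; two-sided exact permutation p = 0.6). STMN1 dominated it in every library. STMN3 made up 5.11%, 6.47% and 5.32% in LOC550643 siRNA libraries, against 9.04%, 9.60% and 8.98% in control libraries, without overlap (exact permutation p = 0.1, the smallest possible).

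The CRMP family has 5 genes, and the other 3, DPYSL3, DPYSL4 and DPYSL5, were read from a list beside the members. DPYSL4, which encodes CRMP3, rose by log2 0.66 (SE 0.0921, limma adjusted p = 0.000288), with 58.1, 58.2 and 47.9 CPM in LOC550643 siRNA libraries, against 36.5, 32.1 and 34.8 CPM in control libraries. DPYSL5, which encodes CRMP5 and was the most abundant per length, rose by log2 0.33 (limma adjusted p = 0.00223), to 155.4 ± 4.33 CPM, against 123.6 ± 3.18 CPM in control libraries (SD, n = 3 each). DPYSL3, which encodes CRMP4, had a log2 fold change of 0.22 and did not pass (limma adjusted p = 0.138). CRMP1 was therefore the only one of the 5 CRMP genes that was called lower. Its share of their summed level was 8.001%, 8.03% and 8.25% in LOC550643 siRNA libraries, against 17.6%, 18.1% and 17.4% in control libraries (exact permutation p = 0.1, the smallest possible). The sum itself was higher in each LOC550643 siRNA library, at 74.1 ± 2.73 CPM per kb, against 63.6 ± 2.08 CPM per kb in control libraries (SD, n = 3 each; exact permutation p = 0.1).

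**Figure D3:**
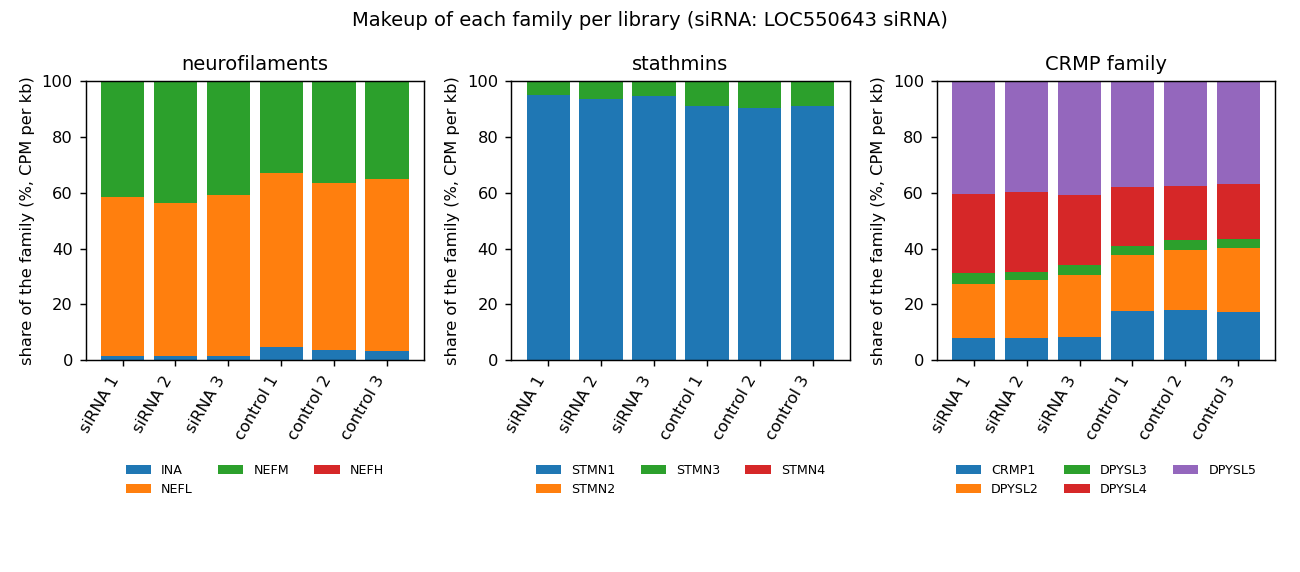
Share of each gene in the summed level per kb of its family (y axes, percent), for the 3 LOC550643 siRNA libraries and then the 3 control libraries (x axes). The INA share is near 1.55% in LOC550643 siRNA libraries and 3.91% in control libraries, the STMN3 share near 5.63% and 9.21%, and the CRMP1 share near 8.09% and 17.7%, each in the same order of groups.

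NEFH, STMN2 and STMN4 were at the limit of detection, taken as 3 read pairs in a library. STMN4, a neuronal stathmin also called RB3 (chromosome 8, minus strand, 27092840 to 27115956), had 7.5, 6.5 and 1.0 read pairs in the LOC550643 siRNA libraries, against 1.0 in each control library; the fraction comes from a pair counted by 1 end. LOC550643 siRNA replicates 1 and 2 passed the limit, and no control library did. Summed over each group and set against depth, the ratio was 6.82 (exact binomial 95% interval 1.93 to 36.8, for counting error only, on 15 pairs in LOC550643 siRNA libraries and 3 in control libraries). Below the filter of 10 read pairs it was not tested, but without a filter it passed (log2 fold change 1.77, limma adjusted p = 0.00451). In the authors' deposited table it is also called, with an adjusted p of 0.0111, as are 19.8% of all rows there.

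STMN2, also called SCG10 (chromosome 8, plus strand, 80523049 to 80578410), had 3.0, 3.0 and 0.0 read pairs in the LOC550643 siRNA libraries, against 1.0, 0.0 and 3.0 in the control libraries. No library was above the limit, so no difference was detectable at this depth. NEFH, the heavy chain (chromosome 22, plus strand, 29876181 to 29887277), had 0 read pairs in all 3 LOC550643 siRNA libraries, against 0.0, 1.0 and 3.5 in the control libraries. Only control replicate 3 was above the limit, and no fold is given. A count of 0 does not show that the mRNA was absent, since a few read pairs can be missed by counting error alone.

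**Figure D4:**
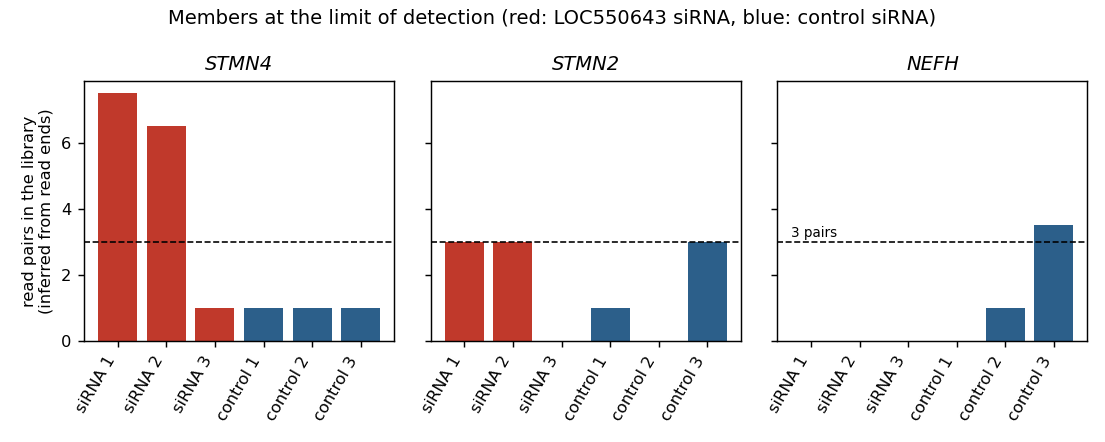
Read pairs (y axis, inferred from read ends) of STMN4, STMN2 and NEFH in each library (x axis), LOC550643 siRNA in red on the left and control siRNA in blue, with a dashed line at 3 pairs. STMN4 is above the line in 2 LOC550643 siRNA libraries, at 7.5 and 6.5 pairs, and STMN2 in none.

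Of 6 other neural intermediate filament genes tested, 0 rose and 2 fell (median log2 fold change -0.38, against -0.02 over all genes tested). Among all genes tested, 17.5% were called higher and 18.2% lower, the background for this and each list below. GFAP, the filament of astrocytes, was at 1.47 ± 0.305 CPM in LOC550643 siRNA libraries and 2.38 ± 0.276 CPM in control libraries (SD, n = 3 each; log2 -0.70, limma adjusted p = 0.0174). SYNM, which encodes synemin, fell by log2 0.49 (limma adjusted p = 0.0270). PRPH, peripherin of peripheral neurons, at -0.27, and DES, the muscle filament desmin, at -0.54, did not pass (limma adjusted p = 0.200 and 0.265). PRPH overlaps LOC101927267 on the opposite strand. VIM, by far the most abundant of the 6, at 0.10, and NES, at -0.11, did not pass (limma adjusted p = 0.380 and 0.568). GFAP and DES were low, with 22 and 12 read ends in LOC550643 siRNA replicate 3. Leaving out LOC550643 siRNA replicate 1 or 3 or any of the 3 control libraries left 1 call; that of GFAP was lost without LOC550643 siRNA replicate 1 (limma adjusted p = 0.0582) or without control replicate 1 or 3 (0.0503 and 0.0743), and that of SYNM without LOC550643 siRNA replicate 2 or 3 (0.110 and 0.0519) or control replicate 2 (0.0709). DES passed without LOC550643 siRNA replicate 2 (0.0485).

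Tubulins, the subunits that stathmins and CRMPs bind, changed in both directions: of 15 tested, 5 rose and 3 fell (median log2 0.15). The shares over all genes tested were 17.5% and 18.2%. The alpha-tubulin TUBA1A rose by log2 0.58 and TUBA1C by 0.47 (limma adjusted p = 0.000154 and 0.000764). The beta-tubulins TUBB6 and TUBB4A rose by log2 0.43 and 0.39 (limma adjusted p = 0.000946 and 0.00112). These genes resemble each other closely, so reads may be split among them. TUBB3, the beta-tubulin typical of neurons and taken here from the neuron marker list, fell to 9.91 ± 1.09 CPM in LOC550643 siRNA libraries, against 15.1 ± 1.37 CPM in control libraries (SD, n = 3 each; log2 -0.61, limma adjusted p = 0.00158). Also called lower were the far more abundant TUBB, at log2 -0.32, and TUBD1, at -0.47 (limma adjusted p = 0.0114 and 0.0129). TUBB is listed at 8 genome positions.

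Of 17 tested genes for proteins that bind and steady microtubules, 10 rose and 1 fell (median log2 0.28). Over all genes tested, 17.5% were called higher and 18.2% lower, and the median was -0.02. CLIP1 and CLIP2, which track growing microtubule ends, rose by log2 0.62 and 0.58 (limma adjusted p = 0.000103 and 0.000229). MAP7, a kinesin cofactor on microtubules, rose by log2 0.61 and MAP1S by 0.46 (limma adjusted p = 0.000605 and 0.000602). CLIP1 overlaps CLIP1-AS1 on the opposite strand. Of 8 severing and depolymerising proteins, 2 rose and 1 fell (median log2 0.07). The depolymerising kinesin KIF2C rose by log2 0.29 (limma adjusted p = 0.0134). FIGN, which encodes fidgetin, fell by log2 0.50 (limma adjusted p = 0.0414), and SPAST, which encodes spastin, was at -0.18 (0.0518). Without LOC550643 siRNA replicate 2 the list held 1 call, with KIF2C at a limma adjusted p of 0.0641 and FIGN at 0.116. FIGN was also lost without LOC550643 siRNA replicate 1 or 3 (limma adjusted p = 0.105 and 0.0648) and control replicate 2 (0.0834), and SPAST passed without control replicate 2 (0.0404).

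Of 20 kinase genes tested, which encode enzymes or activators known to act on these proteins, 3 rose and 4 fell (median log2 0.09). Calls in either direction made up 35.6% of all genes tested. CDK1, the mitotic kinase that acts on STMN1, fell by log2 0.44 (limma adjusted p = 0.000690), and CDK5R1, the p35 activator of the neurofilament and CRMP kinase CDK5, by 0.38 (0.00603). The protein kinase A subunits PRKACA and PRKACB rose by log2 0.28 and 0.32 (limma adjusted p = 0.0126 and 0.0155). The count of 7 calls was 4 without LOC550643 siRNA replicate 1 or 2; PRKACA was lost without LOC550643 siRNA replicate 2 (limma adjusted p = 0.0527) and PRKACB without control replicate 1 or 2 (0.0689 and 0.0501).

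Of 13 genes of semaphorin 3A signalling, in which CRMPs act, 6 rose and 4 fell (median log2 0.18). The shares over all genes tested were 17.5% higher and 18.2% lower. The adhesion molecule L1CAM rose by log2 0.77, the small GTPase RAC1 by 0.56 and the ligand SEMA3C by 0.84 (limma adjusted p = 0.000155, 0.000172 and 0.000370). The receptor NRP1, neuropilin-1, fell to 22.9 ± 0.453 CPM in LOC550643 siRNA libraries, against 34.3 ± 1.59 CPM in control libraries (SD, n = 3 each; log2 -0.58, limma adjusted p = 0.000196). The count of 10 calls was 6 without LOC550643 siRNA replicate 3 or control replicate 1.

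REST and its partners repress many neuronal genes outside neurons, and of 9 genes of this complex tested 4 rose and 2 fell (median log2 0.14). Calls over all genes tested were 17.5% higher and 18.2% lower. REST itself did not pass, at 78.2 ± 8.59 CPM in LOC550643 siRNA libraries and 71.0 ± 10.3 CPM in control libraries (SD, n = 3 each; log2 0.14, limma adjusted p = 0.321). RCOR1 at log2 -0.10 and KDM1A at 0.13 did not pass either (limma adjusted p = 0.281 and 0.166). The deacetylase genes HDAC1 and HDAC2 rose by log2 0.72 and 0.32 (limma adjusted p = 3.7e-05 and 0.00703), the scaffold SIN3A rose by 0.27 (0.0126) and the corepressor RCOR3 fell by 0.51 (0.000811). HDAC2 overlaps LOC101927768 on the opposite strand. Without control replicate 1 the list held 3 calls, and SIN3A was not among them (limma adjusted p = 0.0612).

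**Figure D5:**
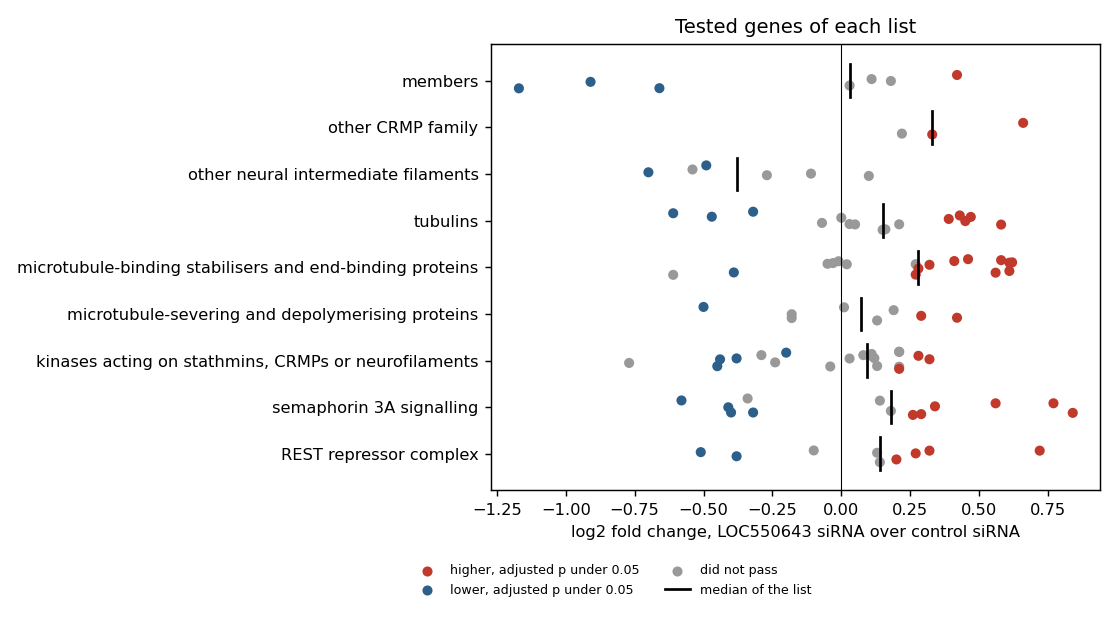
Log2 fold changes, LOC550643 siRNA over control siRNA (x axis), of the tested genes of each list (rows), coloured by call, with the median of the list as a black line. The members are spread over both sides, from INA at -1.17 to NEFM at 0.42, around a median of 0.03.

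Marker genes of other cell types were read in the same libraries, and their part in the members' results was not tested. Their counts stand beside 17.5% of all genes tested called higher and 18.2% lower. Of 12 neuron markers, 9 were tested, of which 1 rose (MAP2) and 3 fell (SYP, SYN1 and TUBB3). The synaptic vesicle gene SYP fell to 3.67 ± 0.259 CPM in LOC550643 siRNA libraries, against 14.4 ± 0.263 CPM in control libraries (SD, n = 3 each; log2 fold change -1.96, limma adjusted p = 9.28e-07). SYN1 was also lower (log2 -2.03, limma adjusted p = 0.00034). SYP overlaps SYP-AS1 on the opposite strand, and SYN1 overlaps other genes there. ELAVL4 and DCX were at or below 3 read pairs in every library. The summed level of the neuron markers was 144.7 to 149.0 CPM in LOC550643 siRNA libraries and 155.4 to 165.9 CPM in control libraries, most of it NCAM1, SYT1 and TUBB3. Of 8 sympathoadrenal markers 2 were tested and fell (HAND2 and CHGA), and TH was at or below the limit in every library; the list summed to 7.69 to 9.11 CPM in LOC550643 siRNA libraries and 10.4 to 11.6 CPM in control libraries. Only 1 of these calls remained without LOC550643 siRNA replicate 1 or 2 or control replicate 1 or 3. CHGA rested on few reads, with 14, 17 and 6 read ends in the LOC550643 siRNA libraries, against 40, 36 and 60 in the control libraries. In LOC550643 siRNA replicate 3 it was at the limit of detection. Kidney epithelium markers summed to 167.7 to 186.2 CPM in LOC550643 siRNA libraries and 139.4 to 159.4 CPM in control libraries, with KRT18, KRT8 and PAX2 highest; KRT18 and KRT8 overlap each other on opposite strands. Of 9, 7 were tested, of which 2 rose (KRT18 and AQP1) and 0 fell, 1 of these calls being lost without LOC550643 siRNA replicate 1 or 3 or control replicate 1, and PAX8 and CDH16 were at or below the limit. Glia markers summed to 21.2 to 24.8 CPM in LOC550643 siRNA libraries and 22.0 to 25.2 CPM in control libraries, with 0 of 3 tested higher and 1 lower (OLIG1), and S100B and MBP at or below the limit. Most of both sums was OLIG2, at 17.5 ± 1.11 CPM in LOC550643 siRNA libraries and 14.8 ± 1.23 CPM in control libraries (SD, n = 3 each). OLIG2 at log2 0.25 and AQP4 at 0.17 did not pass (limma adjusted p = 0.0651 and 0.561). Of the blood and endothelium markers, PTPRC, CD3E, HBB, PECAM1 and CDH5 were at or below the limit in every library.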

How the data were processed

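Poly-A RNA of 6 HEK293T samples, 3 per siRNA, was sequenced as paired 75 base reads in dUTP libraries. Per the labels' protocols, alignment was to hg19 with STAR (2.4.0 in the submitters' processing notes). Exon reads were counted with HOMER, transcripts of a gene merged and no strand option given, and groups were compared with edgeR, per the file headers. The deposited values are a signal: gene counts that the authors scaled to a common library total. All values of up to 40 steps lay within 0.1 step of a multiple of 1 step, read as 1 read end. The authors' deposited log2 fold changes and p-values were only set beside the values computed here.

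edgeR's expression filter asked for a level equal to 10 read pairs at the median depth, in at least 3 libraries. Other libraries could hold fewer read pairs of a gene, and 16245 genes were kept. These were TMM scaled and tested with limma 3.58.1, two-sided with a mean trend, on log2(value + 1 unit as deposited), with Benjamini-Hochberg adjustment over all of them. Alternatives used edgeR 4.0.16 and DESeq2 1.42.0 on recovered reads, in R 4.3.3 and Python 3.11.15. On counts simulated for this comparison over 16211 genes, 83.6% of the 67 genes changed by 1.5-fold were called, and 5.03% of calls were false. The simulation changed few genes, all well counted, and gave every gene the same spread between replicates. In the libraries themselves 35.6% of genes were called, so these 2 rates need not hold for the calls reported. The members and lists were chosen with earlier results of these data known. Named genes are the members, the silenced gene, up to 4 genes of each pathway list with the smallest p and up to 3 of each marker list with the highest level. Other markers that were called or at the limit of detection were named after their values were seen; some genes of the lists are not reported here. The labels do not say whether replicates were separate cultures, so a p-value reflects only the variation among these libraries, possibly technical; replicates differed by more than sampling noise (chi-square over its degrees of freedom at least 5.47).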

Additional observations from a re-analysis of the deposited data

How the results depend on the processing

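The calls of INA, STMN3, CRMP1 and NEFM kept their direction and stayed past the threshold in all 15 alternatives, other scalings, filter, pseudocount, tests and omitted libraries included. With 1 library left out, INA ranged from -1.26 to -1.06, STMN3 from -0.74 to -0.61, CRMP1 from -0.93 to -0.89 and NEFM from 0.33 to 0.50 (log2). NEFL, which never passed, was at -0.05 with library totals and ranged from -0.01 to 0.10 with 1 library left out. DPYSL2 ranged from 0.14 to 0.24 and passed without control replicate 3, so that members called higher numbered 1 to 2 with 1 library left out; they also numbered 2 without a filter, through STMN4. With edgeR on recovered reads, 5851 genes were called in all, beside 5790 with limma, and the 4 member calls were unchanged.

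Among the lists, calls in other neural intermediate filaments numbered 1 with the replicate block and 1 when all libraries were thinned to the shallowest, and 1 to 2 with 1 library left out. Severing and depolymerising proteins had 5 calls with library totals and 5 with upper-quartile scaling, and 1 to 4 with 1 library left out. The ranges with 1 library left out were 4 to 6 calls for the kinases, 6 to 9 for semaphorin 3A signalling, 3 to 5 for the REST complex, 1 to 2 for the sympathoadrenal and 1 to 2 for the kidney markers, and 0 to 1 for blood and endothelium. Thinned libraries left 1 call each for the sympathoadrenal and kidney markers. The blood and endothelium call was lost (0 calls) without a filter, with edgeR, with DESeq2, with the replicate block and on thinned libraries. The cause of these shifts was not tested.

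Libraries with the same replicate number did not deviate together (correlations 0.06, -0.28 and -0.12), so the numbers were not taken to pair them. With the replicate block 2673 genes were higher and 2717 lower, and no member gained or lost a call. Depth limits NEFH, STMN2 and STMN4, which had at most 7.5 read pairs in a library, and the INA value of LOC550643 siRNA replicate 3.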
